A study of Mus musculus with 18 samples.

Results

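The comparison described here is that of digit tips lacking Frizzled6 with wild-type digit tips at the embryonic stage E18.5. Its members are the 3 arrays labelled as wild type (WT) and the 3 labelled as Fzd6 knockout (KO) at that age, 6 of the 18 arrays of the series. All embryos were C57BL/6 offspring of Fzd6+/- parents, labelled as of mixed sex, and the KO embryos were Fzd6-/-. The forelimb digit tips were dissected whole, so the RNA came from all tissues of the tip and not from the nail alone. The other 12 arrays held both genotypes at E14.5 and E16.5, 3 arrays per group, and are used here to place the differences at E18.5 in time. The design text describes RNA from individual embryos but does not say whether embryos shared a litter, so the p-values measure the spread between these arrays.

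Frizzled6 is a cell-surface receptor of the Frizzled family, whose members bind Wnt ligands. In mice it is best known for the orientation of hair follicles, and loss of its function in people causes nail dysplasia. The nail is a plate of keratin-filled cells produced by a matrix in the skin of the digit tip, and it forms during the last part of gestation. In bulk tissue, fewer cells of a type and less RNA per cell cannot be told apart.

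The arrays carried 60-base probes named by their own identifiers, and the sources used here pair none of them with a gene. Probes are therefore given by identifier and sequence, and neither Fzd6 itself nor markers of the tissues of the digit tip were analysed here. Each value is the log2 ratio of the digit tip RNA, labelled with Cy3, to a common reference RNA, labelled with Cy5. The reference was a pool of RNA from mouse cell lines mixed with RNA from embryonic stem cells, and it was on Cy5 on every array. A difference is the KO mean minus the WT mean on the log2 scale, and a probe was called when its limma p-value, adjusted by the Benjamini-Hochberg method over 27989 tested probes, was under 0.05. Each standard error (SE) comes from the same fit. Its spread was estimated over all 18 arrays and not from those of E18.5 alone.

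The probes with the largest differences are shown first because they are the only identity that the transcripts have here. Capitals mark AATAAA, the commonest polyadenylation signal, which lies near the 3′ end of many messenger RNAs. The first set rose in KO.
Z00023034-1: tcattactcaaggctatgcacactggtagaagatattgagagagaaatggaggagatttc
Z00040594-1: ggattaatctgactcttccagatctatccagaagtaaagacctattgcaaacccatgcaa
Z00070112-1: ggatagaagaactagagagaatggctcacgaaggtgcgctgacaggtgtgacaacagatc
Z00042912-1: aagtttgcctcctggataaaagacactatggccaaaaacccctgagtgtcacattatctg
Z00019741-1: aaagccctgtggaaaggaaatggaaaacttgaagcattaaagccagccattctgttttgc
Z00054399-1: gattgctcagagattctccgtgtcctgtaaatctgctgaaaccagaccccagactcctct
Z00022738-1: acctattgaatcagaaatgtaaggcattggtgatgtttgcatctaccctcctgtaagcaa
Z00076280-1: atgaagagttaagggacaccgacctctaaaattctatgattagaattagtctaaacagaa
Z00025481-1: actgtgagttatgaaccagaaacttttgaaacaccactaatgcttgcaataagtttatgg
Z00074235-1: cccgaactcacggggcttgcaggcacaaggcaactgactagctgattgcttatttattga
Z00064409-1: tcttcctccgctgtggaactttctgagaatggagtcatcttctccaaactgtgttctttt
Z00076347-1: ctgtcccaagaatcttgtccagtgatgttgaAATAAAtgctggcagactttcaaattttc

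The second set fell in KO.
Z00012139-1: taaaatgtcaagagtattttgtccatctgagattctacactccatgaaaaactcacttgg
Z00070639-1: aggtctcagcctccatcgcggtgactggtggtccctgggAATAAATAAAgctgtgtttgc
Z00075360-1: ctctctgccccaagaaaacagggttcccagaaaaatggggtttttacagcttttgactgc
Z00027150-1: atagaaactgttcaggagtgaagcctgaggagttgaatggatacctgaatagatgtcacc
Z00007879-1: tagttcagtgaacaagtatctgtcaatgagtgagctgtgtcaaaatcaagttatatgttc
Z00025659-1: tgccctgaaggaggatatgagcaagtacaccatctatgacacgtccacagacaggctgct
Z00057992-1: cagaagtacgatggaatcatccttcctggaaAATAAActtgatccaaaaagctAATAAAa
Z00026007-1: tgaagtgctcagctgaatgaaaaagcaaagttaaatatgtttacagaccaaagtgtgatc
Z00075041-1: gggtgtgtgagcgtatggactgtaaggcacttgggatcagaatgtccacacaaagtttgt
Z00056200-1: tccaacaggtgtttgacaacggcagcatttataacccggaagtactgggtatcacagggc
Z00057348-1: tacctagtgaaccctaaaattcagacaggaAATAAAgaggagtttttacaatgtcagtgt
Z00074193-1: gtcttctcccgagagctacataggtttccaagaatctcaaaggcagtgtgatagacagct
Z00073966-1: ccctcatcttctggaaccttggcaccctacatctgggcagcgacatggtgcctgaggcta

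The letters of the called probes were close to those of all probes tested. The median GC content was 45.0% for probes higher in KO, 43.3% for probes lower in KO and 45.0% for all tested probes. AATAAA was present on the probe strand in 6.93% of the higher, 8.67% of the lower and 7.69% of all tested probes. Its reverse complement, TTTATT, was present in 3.43%, 4.10% and 3.14%.

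The 6 arrays had 59.7% to 67.0% of their probes well above background in Cy3. The 3 KO arrays resembled each other closely, with correlations across probes of 0.961 to 0.985, whereas the 3 WT arrays correlated at 0.919 to 0.953. WT replicate 2 correlated more with the KO arrays (0.940 to 0.960) than with WT replicate 1 (0.919). WT replicate 1 stood apart from the other WT arrays: 682 probes were at least 2-fold below both of them and 255 at least 2-fold above. KO replicate 1 was at least 2-fold above both other KO arrays at 133 probes and below both at 0. The median standard deviation was 0.20 in WT and 0.12 in KO. No slide held both genotypes at E18.5, so genotype and slide cannot be told apart in this comparison.

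At E18.5, 2479 of the 27989 tested probes were called (8.86%), and 7409 had an unadjusted p under 0.05. Of these calls, 1602 were higher in KO (5.72% of tested probes) and 877 were lower (3.13%). Small differences were the commonest: 668 of the higher and 426 of the lower probes differed by less than 1.5-fold, and 590 and 300 by 1.5-fold to 2-fold. Among the rises 282 probes lay between 2-fold and 4-fold and 62 at 4-fold or more, against 122 and 29 among the falls. The KO and WT arrays did not overlap at 1538 of the higher and 849 of the lower probes, where 23.4% of all tested probes had groups that did not overlap. Among the called rises, 35 had signal well above background on all KO arrays and on no WT array, as did 56 of all tested probes. Among the called falls, 46 had the reverse, as did 316 of all tested probes.

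The excess of rises over falls moved with the processing, with 1 array and with the arrays that were fitted. Rises made up 64.6% of the calls as processed here, 53.1% with no background subtraction, 49.3% with Agilent's own processed signals, 48.8% in the authors' value table and 77.0% where loess gave way to median centring. Median centring also shifted the median difference of all tested probes from 0.03 to 0.17. Without WT replicate 1, rises made up 49.1% of 2135 calls. With only the 6 arrays of E18.5 fitted, they made up 51.8% of 326 calls.

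The number of calls depended on single arrays as well. Dropping WT replicate 2 raised it to 5861. Dropping WT replicate 3, KO replicate 2 or KO replicate 1 lowered it to 1253, 1299 or 1647. The first scan batch, with 2 arrays per genotype, gave 461 calls, and 416 of the 2479 were among them. The second batch held 1 array per genotype. All 2479 probes kept their sign in the first batch. That was largely fixed beforehand, since its arrays are part of the same 6 and most calls had groups that did not overlap. WT replicate 2 was the WT array nearest the KO mean at 66.4% of the higher probes, 48.7% of the lower probes and 52.2% of all tested probes. A set of 927 probes, 602 higher and 325 lower, was called whichever of the 6 arrays was left out, which is 37.4% of the calls. Fitting the 6 arrays alone, with no spread borrowed from the earlier stages, gave 326 calls, 169 higher and 157 lower. Of the 927, 291 were among those, 146 higher and 145 lower. Of the 30 named differences at E18.5 described below, 29 kept their call whichever array of E18.5 was left out, with Z00046482-1 as the exception. The size of 16 of the 30 moved by over 1.5 times under at least 1 alternative, among them all 10 with 1 genotype below background; none of the 30 changed sign.

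**Figure D1:**
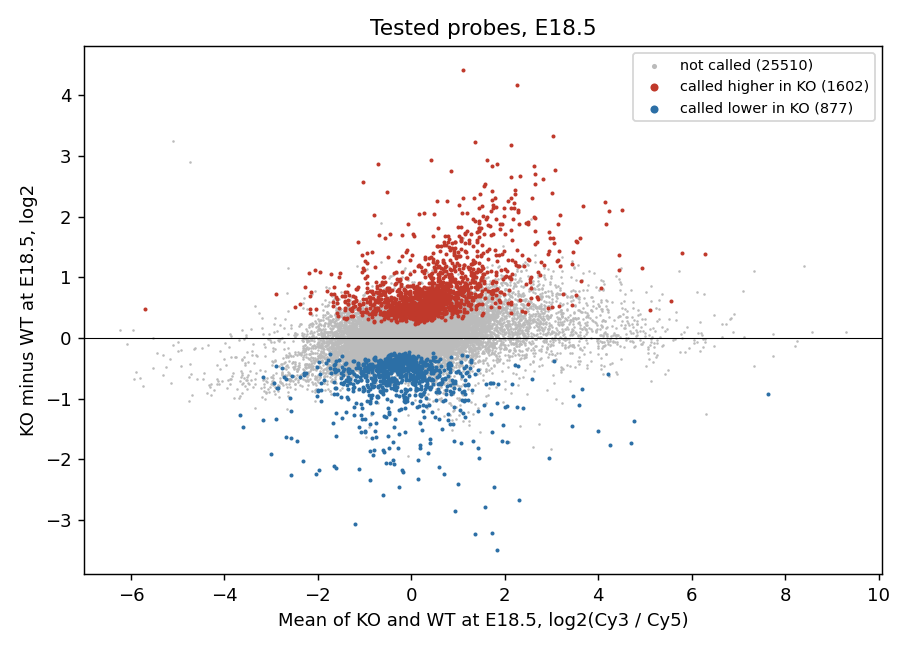
Difference between KO and WT at E18.5 (vertical axis, log2) against the mean of the 2 genotypes (horizontal axis, log2 of Cy3 over Cy5) for each tested probe. The 1602 probes called higher lie above 0 in red and the 877 called lower lie below 0 in blue, with the uncalled probes in grey between them.

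The largest rise was at Z00023034-1. Its values were 3.73, 3.47 and 2.76 on the KO arrays and -0.30, -1.54 and -1.46 on the WT arrays. The groups were far apart, and the KO signal was well above background on all 3 arrays while the WT signal was so on 1. The difference was 4.42 ± 0.36 (SE, n = 3 per group), with a limma adjusted p of 2.59e-06. Its size ran from 3.95 to 7.72 over the alternative processings, and the call held in all of them. The same probe differed by -0.29 at E16.5 and 0.16 at E14.5, and the difference at E18.5 exceeded both (adjusted p = 8.93e-05 and 0.000588). The rise was called at the last of the 3 stages and at neither of the earlier ones. At E14.5 the signal was well above background on 1 KO array and 0 WT arrays, and at E16.5 on 0 arrays of either genotype. The earlier differences therefore compare signals near background.

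Z00040594-1 had the tightest large rise. Its KO values were 4.36, 4.29 and 4.37, and its WT values were 0.06, 0.27 and 0.20. In WT 2 of 3 arrays had signal well above background. The difference of 4.17 ± 0.09 (SE, n = 3 per group) had an adjusted p of 8.65e-14. KO arrays were already at 3.20, 3.02 and 3.22 at E16.5 against WT values of 0.06, 0.02 and 0.10. At E14.5 the difference was 0.35, but the gap between E18.5 and E14.5 was 3.82 here and 0.65 with Agilent's processed signals (adjusted p = 0.369), so the gap between these stages depended on the processing.

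Z00054399-1 also had closely grouped arrays. It read 2.10, 1.83 and 1.74 on the KO arrays and -0.98, -0.78 and -1.40 on the WT arrays. The difference of 2.94 ± 0.15 (SE, n = 3 per group) had an adjusted p of 2.22e-08. At E16.5 the probe was lower in KO, by -0.73 (adjusted p = 0.0056), and the change of sign between the stages was itself 3.67 ± 0.22 (adjusted p = 2.34e-07). Z00076347-1 was called higher at E18.5 only. Its KO values were 1.13, 1.75 and 1.08. Its WT values were -0.09, -0.60 and -0.41, all without signal well above background. Its Cy3 signal rose at least 3.27-fold (channel means of 8.23 and 6.52 on the log2 scale). The difference in log2 ratio was -0.22 at E16.5 and 0.00 at E14.5, where no array of either genotype had signal well above background.

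Other rises were present at every stage. Z00042912-1 read 3.36, 3.15 and 2.43 in KO and -0.05, -0.40 and -0.32 in WT at E18.5, a difference of 3.24 ± 0.54 (SE, n = 3 per group, adjusted p = 0.0017). It differed by 2.96 at E16.5 and 2.57 at E14.5, with no difference between stages called. At E14.5, however, KO replicate 1 was at 0.25 while the other KO arrays were at 2.92 and 2.85. At Z00064409-1 every KO array of each stage had signal well above background, while 0 WT arrays did at E18.5 and 1 did at each earlier stage, with KO values of 2.17, 2.29 and 2.34 at E18.5 and WT values of -0.01, -0.08 and -0.05. Its Cy3 signal was at least 4.26-fold higher in KO at E18.5 (channel means of 8.42 and 6.29), and its differences at E16.5 and E14.5 were 2.16 and 2.02. Z00076280-1 differed by 2.87 ± 0.46 at E18.5 (adjusted p = 0.00112), by 1.93 at E16.5 and by 3.68 at E14.5, and its WT arrays ranged from -3.14 to -1.15.

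**Figure D2:**
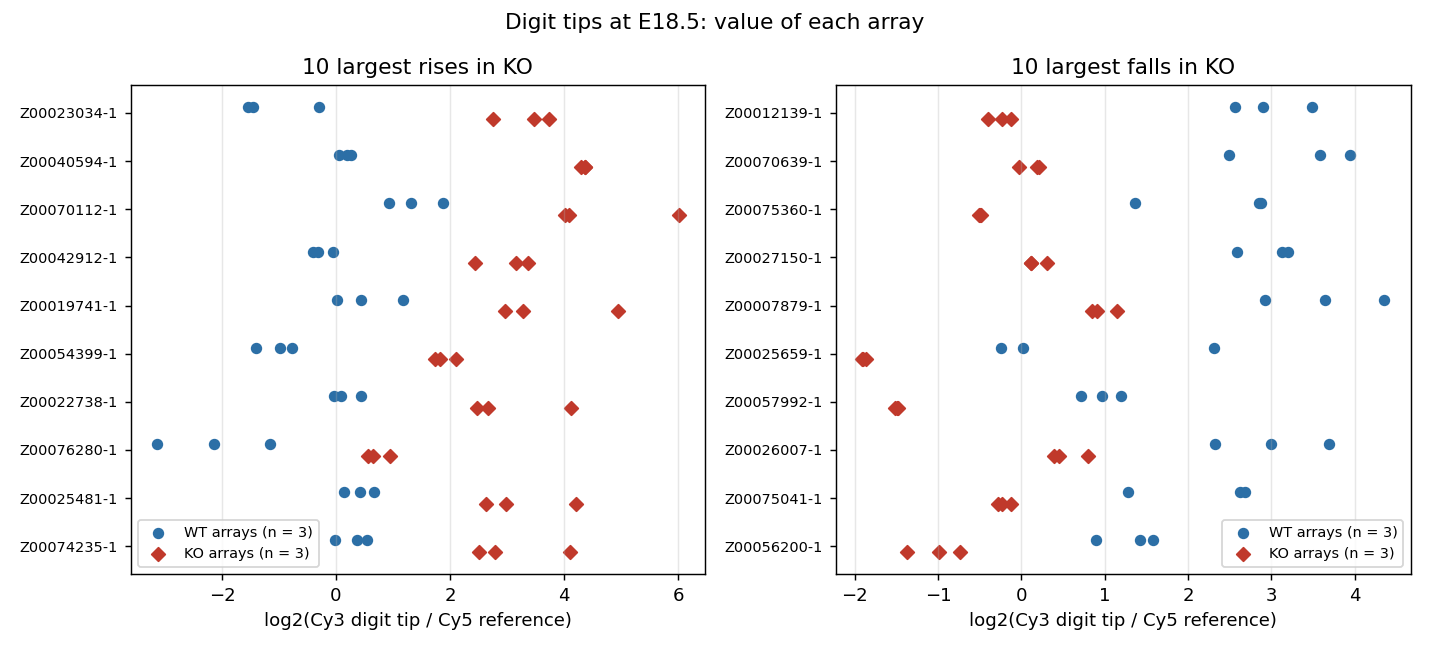
Value of each of the 6 arrays at E18.5 (horizontal axis, log2 of Cy3 over Cy5) for the 10 largest rises and the 10 largest falls in KO, 1 probe per line, with 3 WT arrays as blue circles and 3 KO arrays as red diamonds. The genotypes do not overlap at any of the 20 probes, which the selection required, and KO replicate 1 lies apart to the right at 5 of the rises, as at Z00070112-1 where it is 6.02 and the other KO arrays are 4.01 and 4.08.

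The remaining large rises shared a pattern over the arrays. Z00070112-1 read 6.02, 4.01 and 4.08 in KO and 1.32, 1.88 and 0.92 in WT. Z00019741-1 read 4.95, 3.28 and 2.97 in KO and 0.02, 0.44 and 1.18 in WT. In both, KO replicate 1 was far above the other KO arrays, and those were still above every WT array, which the selection required. Z00022738-1, Z00025481-1 and Z00074235-1 had the same order, with KO replicate 1 at 4.12, 4.20 and 4.11. Without KO replicate 1 the difference at Z00070112-1 was 2.68 (adjusted p = 7.09e-05) in place of 3.33, and at Z00019741-1 it was 2.58 (adjusted p = 0.000555) in place of 3.18.

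This group was larger than the named probes. KO replicate 1 was at least 2-fold above both other KO arrays at 133 tested probes, a set chosen from the values of these arrays and so given as a description. Their medians were 2.80, 1.25 and 1.39 on KO replicates 1, 2 and 3 and 0.08, 0.38 and 0.33 on the WT replicates in the same order. Of the 133, 100 were called higher in KO and 0 lower, and 94 were called higher without KO replicate 1. Over all tested probes the shares called higher were 5.72% and 3.94%, and the choice of the set used the same KO values. They made up 97 of the 344 rises of 2-fold or more. With all arrays their median difference was 1.54, and without KO replicate 1 it was 1.07. At the earlier stages their median difference was 0.32 (E16.5) and -0.33 (E14.5).

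**Figure D3:**
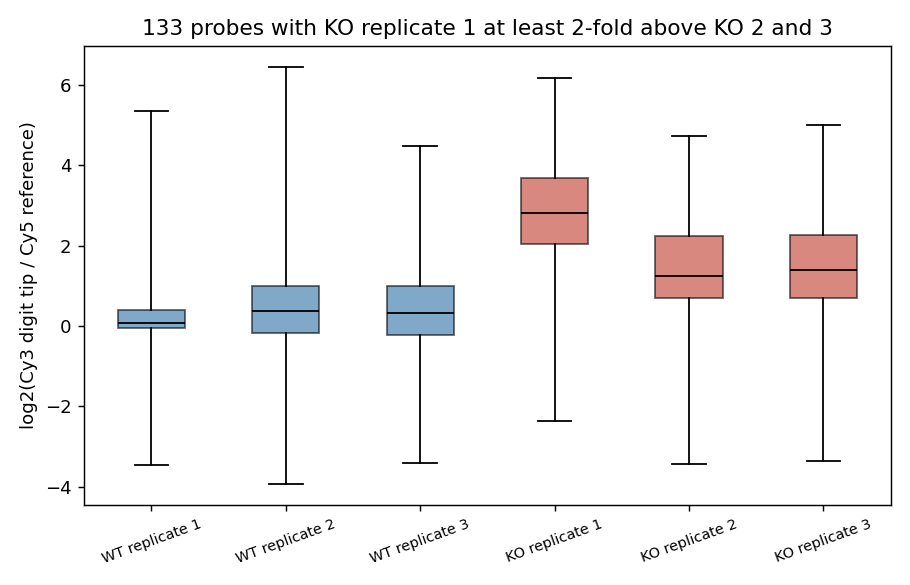
Values (vertical axis, log2 of Cy3 over Cy5) on each array at E18.5 of the 133 probes that KO replicate 1 held at least 2-fold above KO replicates 2 and 3, as boxes from the first to the third quartile with the median as a line and whiskers to the extremes. The medians of KO replicates 2 and 3, 1.25 and 1.39, lie between that of KO replicate 1, 2.80, and those of the WT arrays, 0.08 to 0.38.

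The WT mean of these 133 probes was higher at E14.5 than at E18.5 in 119 and higher at E16.5 than at E18.5 in 118, with medians of 1.11 (E14.5), 0.77 (E16.5) and 0.30 (E18.5). These changes were not tested, and the same counts over all tested probes are not given here. The set was chosen from values at E18.5, so the counts are a description and show no trait particular to it. Z00070112-1 had a WT mean of 3.85 at E14.5 and 3.27 at E16.5 and WT values from 0.92 to 1.88 at E18.5, while the KO mean was 2.96 at E14.5 and 3.74 at E16.5. Z00025481-1 went in WT from 2.30 at E14.5 and 1.65 at E16.5 to values from 0.14 to 0.67. At both probes the E18.5 difference exceeded that at E14.5, by 4.22 and 3.60, and that at E16.5, by 2.86 and 2.05. The cause of the position of KO replicate 1, and its part in these rises, was not tested.

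The falls had a different character. Z00012139-1 read -0.40, -0.23 and -0.12 in KO and 2.56, 2.89 and 3.48 in WT. The difference of -3.23 ± 0.28 (SE, n = 3 per group) had an adjusted p of 3.62e-06. It was -3.66 at E16.5 and -3.08 at E14.5, so the fall was of like size at all 3 stages. Z00070639-1 read 0.18, 0.22 and -0.02 in KO and 2.49, 3.59 and 3.95 in WT, a difference of -3.22, with -3.33 and -3.74 at E16.5 and E14.5. WT replicate 1 was the lowest WT array at both.

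Several falls had KO arrays that were almost identical. Z00075360-1 read -0.49, -0.50 and -0.48 in KO and 1.36, 2.87 and 2.85 in WT. Z00057992-1 read -1.49, -1.48 and -1.51 in KO and 0.97, 0.72 and 1.19 in WT, and its difference of -2.46 ± 0.13 (SE, n = 3 per group, adjusted p = 2.22e-08) stood beside -2.48 at E16.5 and -2.55 at E14.5. Z00025659-1 was the exception among the named falls in the spread of WT: its KO values were -1.87, -1.91 and -1.90, but WT ran from -0.24 and 0.03 to 2.31 on replicate 3, and the call was lost with only the 6 arrays fitted (adjusted p = 0.122). The KO signals of Z00075360-1 were well above background on 1 array.

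The other named falls also had the KO arrays below every WT array. Z00007879-1 read 0.91, 0.85 and 1.14 in KO and 2.93, 3.64 and 4.36 in WT, and Z00026007-1 read 0.81, 0.46 and 0.39 in KO and 2.32, 3.69 and 3.00 in WT. Their differences of -2.67 and -2.45 stood beside -2.65 and -1.94 at E16.5, all called. Z00056200-1 differed by -2.33 ± 0.19 (adjusted p = 1.96e-06), by -2.76 at E16.5 and by -3.03 at E14.5. Z00075041-1 read -0.28, -0.12 and -0.23 in KO and 1.28, 2.62 and 2.69 in WT. It was called at E18.5 and at E14.5 (-3.10), while at E16.5 its WT arrays spread from -0.50 to 2.31 and the difference of -1.18 was not called (adjusted p = 0.14).

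Some transcripts were not seen above background in KO. For these the fold is a bound taken on the Cy3 signal alone, not on the log2 ratio. It compares arrays of the 2 genotypes, which lay on different slides, so it is open to differences between arrays and slides. Z00057348-1 read 0.12, 0.13 and 0.03 in KO and 2.38, 3.97 and 4.42 in WT, and the WT signal in Cy3 was at least 12.9-fold above that of KO (channel means of 10.06 and 6.22 on the log2 scale). Z00074193-1 read -2.74, -2.59 and -2.90 in KO and 0.25, 0.25 and 0.45 in WT, at least 8.02-fold in Cy3 (9.74 and 6.74). Both had no KO array well above background at this stage and differed by -3.41 and -3.13 at E16.5 and by -3.21 and -3.50 at E14.5. The bounds for Z00073966-1 and Z00029872-1 were 4.95-fold and 3.74-fold. Z00046482-1 had the weakest of these calls (adjusted p = 0.0451), which was lost when WT replicate 1 (adjusted p = 0.141) or WT replicate 3 (0.141) was left out, and when each KO array was left out in turn (0.0898 to 0.127).

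Z00027150-1 was the 1 of the 10 largest falls whose size changed by test against an earlier stage. It read 0.12, 0.11 and 0.31 in KO and 2.59, 3.12 and 3.20 in WT at E18.5, a difference of -2.79 ± 0.30 (adjusted p = 3.28e-05). At E16.5 the difference was -0.96, with WT at 0.54, 0.60 and 2.02 and KO at 0.08, 0.13 and 0.09, so that KO was at like values at both stages. The change between the stages was -1.84 (adjusted p = 0.017), and it was -1.35 (adjusted p = 0.0879) with slide as a term of the fit.

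Across all calls, the falls were more often shared with the earlier stages than the rises. The stages used separate arrays, but the spread of each probe was estimated over all 18. Each KO replicate at E18.5 also lay on 1 slide with the same-numbered KO replicate from E16.5. Those slides carried no WT array. Any shift of such a slide would enter both differences, and its part in the shared calls was not tested. Calls at different stages were therefore not independent, and the shares below are a description. Of the 877 falls, 319 were also called lower at E14.5 (36.4%, against 5.22% of all tested probes) and 337 at E16.5 (38.4%, against 6.14%). Of the 1602 rises, 198 were called higher at E14.5 (12.4%, against 3.72%) and 274 at E16.5 (17.1%, against 6.08%). The listed falls made up 21.8% of all probes lower at E14.5 and 19.6% of those lower at E16.5, and the rises 19.0% and 16.1% of the corresponding lists. Direction without regard to calls gave the same order: 79.8% of falls and 55.6% of rises had the same sign at E16.5. At E14.5 these shares were 77.3% of falls and 45.6% of rises. Same-sign shares over all tested probes are not given here. Rises were also called lower at E16.5 at 154 probes (9.61%, against 6.14% of all tested probes). The difference between rises and falls in these shares was not tested.

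**Figure D4:**
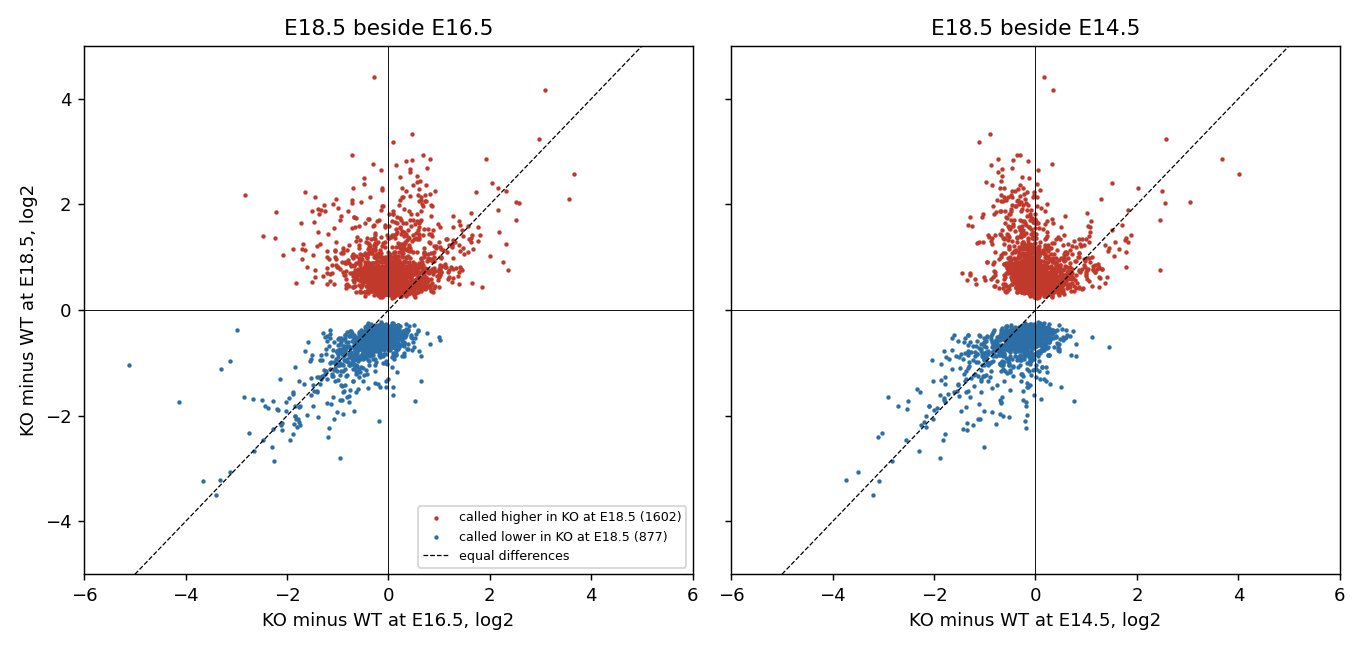
Difference between KO and WT at E18.5 (vertical axis, log2) of the called probes against their difference at E16.5 (left) and E14.5 (right), with rises in red, falls in blue and the line of equal differences dashed. The fall of Z00012139-1, -3.23 at E18.5 and -3.66 at E16.5, lies near the dashed line, while the rises have median differences of 0.06 at E16.5 and -0.02 at E14.5.

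The change of the difference with stage was tested directly. The difference at E18.5 exceeded or fell below that at E16.5 at 1727 probes (6.17% of tested probes), 1237 more positive and 490 more negative, and that at E14.5 at 1851 (6.61%), 1336 and 515. Without WT replicate 2 these counts were 2764 and 3988, and without KO replicate 2 they were 1089 and 1104. Slides held arrays that allowed this test with slide as a term for E16.5 alone, where 588 probes were called and 531 of them were among the 1727. Of the 1602 rises, 371 exceeded both earlier stages by test (23.2%, against 1.78% of all tested probes). Of the 371, 133 had a KO minus WT difference of 2-fold or more at E18.5. They are not the 133 probes chosen by KO replicate 1, of which 31 exceeded both earlier stages by test. Among the 1602 rises, 170 were called higher at all 3 stages (10.6%, against 0.607%). Of the 877 falls, 71 exceeded both earlier stages in the negative direction (8.10%, against 0.693%), and 236 were called lower at all 3 (26.9%, against 0.843%). The calls at E18.5 entered each of these contrasts, so the shares are a description.

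At several of the largest contrasts between stages WT was above KO at E16.5. The probes described next are shown with AATAAA again in capitals.
Z00040631-1: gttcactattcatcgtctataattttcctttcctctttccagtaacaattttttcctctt
Z00040994-1: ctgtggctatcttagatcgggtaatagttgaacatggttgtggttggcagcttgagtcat
Z00026015-1: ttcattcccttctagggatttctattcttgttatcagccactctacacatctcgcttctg
Z00059773-1: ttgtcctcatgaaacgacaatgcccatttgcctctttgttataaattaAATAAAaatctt
Z00073883-1: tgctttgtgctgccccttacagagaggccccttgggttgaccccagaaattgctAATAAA
Z00074438-1: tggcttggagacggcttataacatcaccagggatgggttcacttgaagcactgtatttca
Z00028661-1: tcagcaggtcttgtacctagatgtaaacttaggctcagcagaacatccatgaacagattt
Z00059773-1 read 3.21, 3.47 and 3.44 in WT at E16.5 and -1.53, -1.26 and 0.26 in KO, and at E18.5 4.17, 4.27 and 4.73 in WT and 4.53, 4.53 and 4.27 in KO. The genotypes overlapped at E18.5, where the difference was 0.05 ± 0.32, after -4.22 at E16.5. Z00040994-1 had a WT mean of 6.27 and a KO mean of 0.72 at E16.5 and reached 7.72, 7.84 and 8.10 in KO and 6.14, 6.56 and 7.66 in WT at E18.5. The difference at E18.5 was not called (adjusted p = 0.127), although the arrays did not overlap.

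Z00040631-1 differed by -4.39 at E16.5 and by 2.32 at E18.5, which was not called (adjusted p = 0.0511). Its WT mean fell from 4.96 at E16.5 to 0.62 at E18.5, while its KO mean went from 0.57 to 2.94. Its KO value on replicate 3 was 5.44 and those on replicates 1 and 2 were 1.63 and 1.76. Z00026015-1 differed by -2.82 at E16.5 and 2.18 at E18.5 (adjusted p = 0.0322), with genotypes that overlapped: KO 4.36, 3.68 and 6.24 and WT 2.27, 4.07 and 1.40. Its WT mean fell from 6.89 at E16.5 to 2.58 at E18.5, while its KO mean went from 4.07 to 4.76. Its stage contrast of 5.01 was 1.14 (adjusted p = 0.340) with Agilent's processed signals.

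Other differences were smaller at E18.5 than at the earlier stages and were not called there. Z00028661-1 had no WT array well above background at E14.5, where the measured difference was 4.75, and was higher in KO by 1.76 at E16.5 and by 0.69 at E18.5 (adjusted p = 0.169), where KO read 1.73, 1.77 and 2.33 and WT 1.34, 1.64 and 0.78. Z00074438-1 was higher in KO by 2.73 at E14.5 and 2.22 at E16.5 and by 0.49 at E18.5 (adjusted p = 0.229), with KO values of 1.78, 1.82 and 1.62 and WT values of 1.15, 1.08 and 1.51. The change of Z00028661-1 between E14.5 and E18.5 ran from -8.57 to -3.63 over the alternative processings. Z00073883-1 was higher in KO by 4.18 at E14.5, by 3.65 at E16.5 and by 1.25 at E18.5 (adjusted p = 0.112). At E18.5 its KO values of 3.25, 3.07 and 2.89 overlapped WT values of 1.56, 3.46 and 0.42, through WT replicate 2 alone. At Z00028661-1 and Z00074438-1 every KO array was still above every WT array at E18.5. At both, the KO values changed less over the stages than the WT means, which were -2.60 and -1.62 at E14.5.

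The WT course between E14.5 and E16.5 came from arrays outside the E18.5 comparison, but its calls used the same estimate of spread and were not independent of it. Of the rises at E18.5, 397 had risen in WT over that interval (24.8%, against 12.7% of all tested probes) and 183 had fallen (11.4%, against 15.6%). Of the falls at E18.5, 144 had risen (16.4%) and 166 had fallen (18.9%).

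Probes that share sequence gave a check between spots, since they report on the same letters from different spots. They lay on the same arrays and share any shift of an array or slide. The check therefore does not reach the genotype difference itself. There were 707 pairs of tested probes with at least 30 bases in common, and 78 had at least 1 probe called. In 52 both were called, 51 of them in the same direction, and in 25 of the other 26 the signs matched. The share of matching signs over all 707 pairs is not given here. Over all pairs the correlation of the E18.5 differences was 0.94, a description across probes that share letters and arrays. Shown first, with the shared bases in capitals, are a pair that fell and a pair that rose at E18.5 and was lower at E16.5. They are followed by a pair that rose where WT had no signal above background. The last pair holds the named fall Z00057992-1, and its sizes differed.
Z00034766-1: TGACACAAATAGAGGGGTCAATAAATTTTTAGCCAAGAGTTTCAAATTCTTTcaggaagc
Z00060812-1: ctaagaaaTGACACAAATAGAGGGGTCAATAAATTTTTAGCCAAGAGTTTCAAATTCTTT
Z00072968-1: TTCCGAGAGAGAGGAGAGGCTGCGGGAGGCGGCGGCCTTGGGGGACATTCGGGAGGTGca
Z00073707-1: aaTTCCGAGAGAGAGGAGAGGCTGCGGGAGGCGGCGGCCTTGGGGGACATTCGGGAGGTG
Z00033344-1: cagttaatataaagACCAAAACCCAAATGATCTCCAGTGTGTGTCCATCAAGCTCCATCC
Z00075832-1: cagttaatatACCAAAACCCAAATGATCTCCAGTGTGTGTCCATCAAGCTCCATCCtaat
Z00030528-1: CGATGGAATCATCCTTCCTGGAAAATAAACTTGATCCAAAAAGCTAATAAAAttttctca
Z00057992-1: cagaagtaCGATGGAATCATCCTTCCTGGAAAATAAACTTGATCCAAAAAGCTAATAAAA

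Z00034766-1 and Z00060812-1 differed by -2.20 and -2.17. Z00072968-1 and Z00073707-1 differed by 1.89 and 1.91 at E18.5 and by -1.33 and -1.39 at E16.5, with KO values from 3.13 to 3.70 and WT values from 0.93 to 2.12. Z00033344-1 and Z00075832-1 had no WT array well above background, and their Cy3 signals rose at least 2.96-fold and 3.22-fold. Their log2 differences of 1.58 and 1.68 ran from 1.06 to 4.02 and from 1.15 to 4.21 over the alternative processings, and some calls were lost (adjusted p up to 0.133 and 0.0818). In each pair both probes gave the same direction and nearly the same size.

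Z00030528-1 and Z00057992-1 share 52 bases but differed by -1.31 and -2.46. Their WT values were close, 0.90, 0.70 and 1.20 against 0.97, 0.72 and 1.19, while the KO values were -0.37, -0.41 and -0.35 against -1.49, -1.48 and -1.51. A pair with 35 bases in common, Z00030300-1 and Z00060696-1, differed by -1.27 (adjusted p = 1.75e-06) and -0.11 (adjusted p = 0.456). In the first pair the falls differed in size, and in the second 1 probe was called and the other was not. The gaps themselves were not tested.

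Of the tested probes, 170 matched letter for letter a stretch within 250 bases before to 50 bases after a gene start in RefSeq (GRCm38.p6), and 9 of these were called (5.29%, against 8.86% of all tested probes). The match places the probe and does not assign it to the gene. Those with the larger differences are shown here for their position.
Z00067713-1: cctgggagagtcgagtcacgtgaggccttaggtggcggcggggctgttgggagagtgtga
Z00044170-1: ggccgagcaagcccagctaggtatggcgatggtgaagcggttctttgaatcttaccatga
Z00067713-1 lies at chr16:45158742-45158801 on the plus strand, upstream of the start of Atg3, an autophagy enzyme gene, on its strand and of Slc35a5 on the opposite strand. It read 3.38, 3.83 and 3.65 in KO and 1.23, 2.24 and 1.42 in WT, a rise of 1.99 ± 0.23 (SE, n = 3 per group, adjusted p = 8.24e-05), after a difference of -1.27 at E16.5. Z00044170-1 lies at chr17:56717818-56717877 on the plus strand, upstream of Vmac and on the strand opposite to it, and fell by 1.01 on the log2 scale, with -1.15 at E16.5 and -0.71 at E14.5. Z00075360-1, one of the largest falls, lies at chr4:155888885-155888944 on the plus strand, upstream of LOC115489960 and on the opposite strand.

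**Figure D5:**
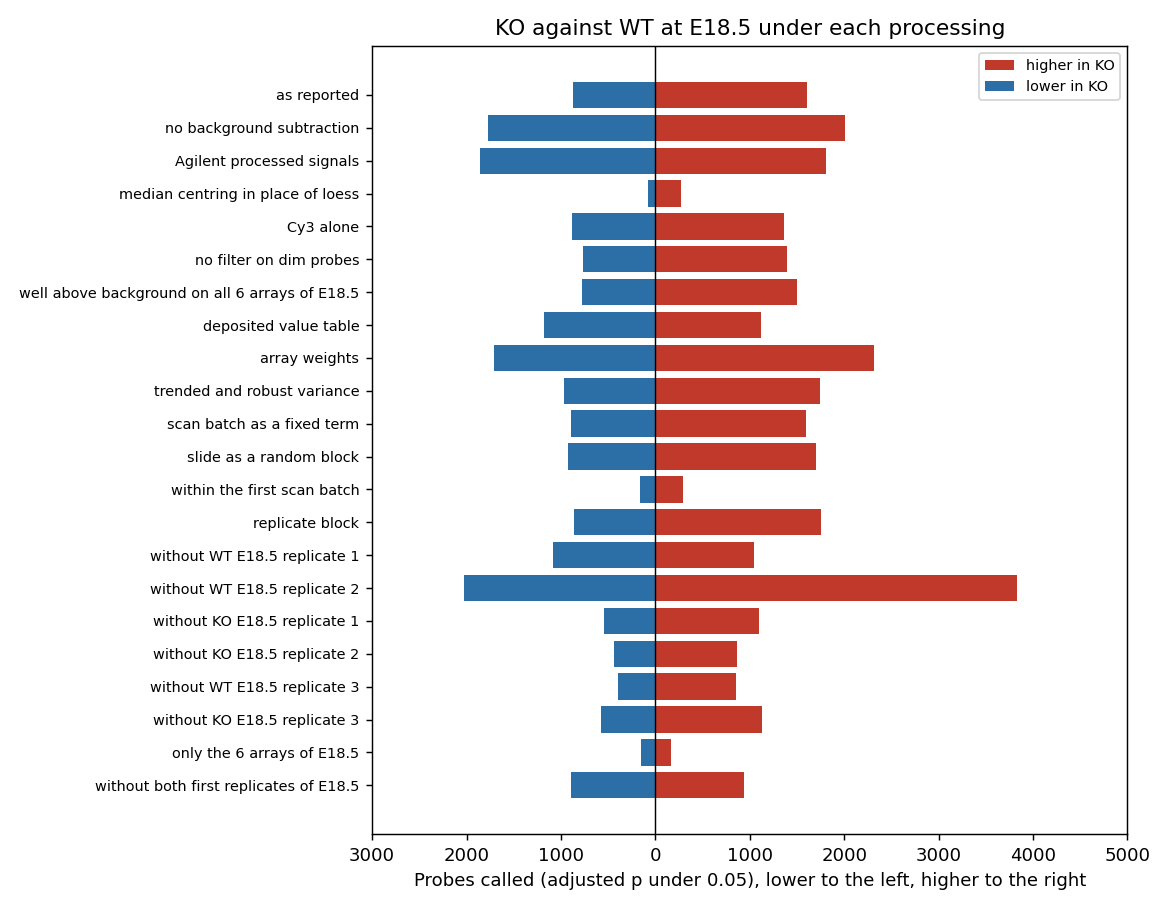
Number of probes called at E18.5 (horizontal axis) under each processing, with probes lower in KO to the left of 0 in blue and higher to the right in red. The counts run from 326 with only the 6 arrays fitted to 5861 without WT replicate 2, beside 2479 as reported.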

How the data were processed

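RNA of forelimb digit tips was measured on 18 Agilent arrays of 2 channels, of which the 6 of E18.5 form the comparison. The deposited scanner files, made with Agilent Feature Extraction 9.5.1.1 per the file headers, hold intensity values for each spot. The deposited value table followed log10 of digit tip over reference signal (correlations 0.991 to 1.000 with the scanner ratios); its column medians ran from 2.44 to 2.48, and the origin of the constant and any centring per probe stay unknown. It was used as an alternative.

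Mean signals were corrected with normexp (offset 50) against the deposited background intensity and loess-normalized within each array, and log2 of Cy3 over Cy5 was taken from the deposited signals. Control spots (1417 of 43451) and outlier spots were left out and spots of a probe averaged, giving 42006 probes. A probe was tested (27989) where some group had it well above background on each of its 3 arrays in Cy3, with 2 or more values in every group. Limma 3.58.1 in R 4.3.3 fitted 1 mean per group over all 18 arrays, so the earlier stages share the estimate of spread, and p-values were adjusted by the Benjamini-Hochberg method. Steps were tested on simulated data.

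The number of arrays limits the precision. A bound, on the Cy3 signal after loess and scaling between arrays, compares the mean of the genotype with signal to the lowest signal that was well above background, or to the dim probe's own where higher. Named probes are the 10 largest rises and falls with groups that do not overlap and signal above background on at least 1 array of each genotype, the 5 largest bounds on either side, and the 5 largest changes in each direction against each earlier stage; shared-sequence pairs and probes near gene starts were chosen after their values were seen. The comparison, lists and rules were chosen with earlier results of these data known. Lists of named genes were not used because no probe was paired with a gene. Scan batches separated replicate 3 from replicates 1 and 2; alternatives covered background, normalization, filters, batches, slides, weights and each left-out array.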

Additional observations from a re-analysis of the deposited data

Results flagged for a closer look

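The genotype difference at E18.5 was tested against the difference at each earlier stage, and a called change between stages singled out the following. Against E16.5 there were 1727 such probes, and against E14.5 there were 1851.

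Among the named rises, the difference at E18.5 exceeded that at E16.5 by 4.71 at Z00023034-1, 1.08 at Z00040594-1, 2.86 at Z00070112-1, 3.09 at Z00019741-1 and 3.67 at Z00054399-1. It did so by 2.25 at Z00022738-1, 2.05 at Z00025481-1, 2.36 at Z00074235-1, 1.91 at Z00076347-1 and 2.61 at Z00030864-1. Z00030864-1 was named for its change against E14.5 and not as one of the largest rises. At this probe KO replicate 1 read 3.40 and KO replicate 2 read 1.76, with WT at -0.43, -0.51 and -0.64. No value of KO replicate 3 is given here.

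Against E14.5 the excess was 4.26 at Z00023034-1, 3.82 at Z00040594-1, 4.22 at Z00070112-1, 4.29 at Z00019741-1 and 3.24 at Z00054399-1. It was 3.29 at Z00022738-1, 3.60 at Z00025481-1, 3.27 at Z00074235-1, 1.69 at Z00076347-1, 1.54 at Z00025084-1 and 3.63 at Z00030864-1.

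The greatest positive changes against E16.5 were 6.72 at Z00040631-1, 6.65 at Z00040994-1, 5.01 at Z00026015-1 and 4.26 at Z00059773-1. In these the WT level at E16.5 was above the KO level and no such gap was present at E18.5.

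Changes in the negative direction against E16.5 were -2.40 at Z00073883-1, -1.97 at Z00025996-1, -1.84 at Z00027150-1, -1.72 at Z00074438-1 and -1.72 at Z00041516-1. Z00025996-1 was higher in KO at E16.5 by 0.64 and lower at E18.5 by -1.34 and at E14.5 by -0.93.

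Against E14.5 they were -4.06 at Z00028661-1, -2.92 at Z00073883-1, -2.73 at Z00033785-1, -2.61 at Z00071847-1, -2.48 at Z00072039-1 and -2.23 at Z00074438-1. Z00073883-1 and Z00071847-1 share 53 bases and are not independent. Some of these calls rested on single arrays of E18.5. The change of Z00033785-1 against E14.5 was not called when WT replicate 1 (limma adjusted p = 0.0610), WT replicate 3 (0.0857), KO replicate 1 (0.0968) or KO replicate 2 (0.0983) was left out. That of Z00073883-1 against E16.5 was not called without KO replicate 1 (0.0666), 2 (0.0937) or 3 (0.0871). Without KO replicate 2 or 3, the changes against E14.5 were not called at Z00071847-1 (0.0623 and 0.0558) and Z00072039-1 (0.0561 and 0.0750).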

How the results depend on the processing

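The counts for E18.5, for its difference from E16.5 and for its difference from E14.5 are given in that order, 2479, 1727 and 1851 as reported. They were 3779, 3401 and 3049 with no background subtraction, 357, 138 and 119 with median centring in place of loess, and 4026, 2649 and 4927 with array weights, whose estimate did not reach its convergence tolerance. Within the first scan batch alone they were 461, 574 and 284. With Agilent's processed signals the change against E16.5 gave 2889, fitting only the 6 arrays of E18.5 gave 326, and slide as a fixed term gave 588 for the change against E16.5 (the other 2 could not be fitted with it). Leaving out 1 array of E18.5 gave 1253 to 5861, 1089 to 2764 and 1104 to 3988. Without both first replicates of E18.5, chosen after seeing the data, the counts were 1829, 2190 and 1541. The same replicate numbers do not pair the arrays: deviations of same-numbered arrays correlated at -0.16, -0.07 and -0.00, and the replicate block gave 2608, 1660 and 1874. The remaining alternatives left each count within 1.5 times. No named probe reversed; 66 of its 1003 alternative values lost the call, 13 with median centring and 13 within the first scan batch. The causes were not tested. The spread of 3 arrays a group and dim signals limit what could be called.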
